A study of Rattus norvegicus with 6 samples.

Results

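Keratins, the intermediate filament proteins of epithelial cells, were followed gene by gene in the lungs of wild-type rats and of rats edited in Tmprss2. Every gene of the count table named Krt and a number was taken, which gave 50 of 40995 genes. Of these, 25 reached at least 10 counts in 1 or more libraries and are the keratins described here. Another 18 were counted but stayed under 10 in each library, and 7 had no count. Next to that limit, the highest count was 12 for Krt31, which is included, and 9 for Krt83, which is not.

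The samples were lung tissue of 3 wild-type (WT) rats and 3 rats of the crTMPRSS2 knockout (KO) line, all of Sprague-Dawley background and untreated. The line was made by CRISPR/Cas9 editing of Tmprss2, a membrane-bound serine protease of airway and alveolar epithelium. The labels call the rats biological replicates and give all 6 the same batch. The sources used here give no age, sex, litter or number of founders. The comparison asks how the keratins of the edited line stand against those of WT lung without any challenge.

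A keratin filament is built from pairs of a type I and a type II keratin, and each kind of epithelium uses its own pairs. Krt8 and Krt18, with Krt7 and Krt19, are the keratins of simple epithelia such as the airway and alveolar lining, and mesothelium carries them too. Krt5 with Krt14 marks the basal layer of stratified epithelia and the basal cells of airways, and Krt4 with Krt13 marks the upper layers of moist squamous epithelia such as the oesophagus.

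In the coordinates of the deposited table (build mRatBN7.2), 14 of the 25 keratins lay on chromosome 7, within 132464807 to 133161162, and 11 on chromosome 10, within 84184137 to 85183392. The first group holds the type II genes and Krt18, and the second holds the other type I genes and Krt222. Protein names in the table gave 13 as type II and 11 as type I, and none for Krt222. RefSeq promoter windows (build GRCr8, which is not the build of the counts) were found for 15 of the 25 genes. None was found for Krt1, Krt6a, Krt7, Krt13, Krt14, Krt15, Krt17, Krt19, Krt80 and Krt222.

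The 250 bases before the annotated start are shown for 4 type II genes of the chromosome 7 cluster, since the results turn on them: Krt4 and Krt5 were high in 1 library, and Krt76 and Krt79 were lower in KO. Each is written 5′ to 3′ on the gene's own strand, the minus strand for all 4. The windows are chr7:134930714-134930963 for Krt4, chr7:134730570-134730819 for Krt5, chr7:134904163-134904412 for Krt76 and chr7:134946448-134946697 for Krt79, the most upstream of its 3 annotated windows. Capitals mark matches on either strand to the TATA-box letters TATAAA, to the AP-1 letters TGANTCA or to the GC-box letters GGGCGG.
Krt4: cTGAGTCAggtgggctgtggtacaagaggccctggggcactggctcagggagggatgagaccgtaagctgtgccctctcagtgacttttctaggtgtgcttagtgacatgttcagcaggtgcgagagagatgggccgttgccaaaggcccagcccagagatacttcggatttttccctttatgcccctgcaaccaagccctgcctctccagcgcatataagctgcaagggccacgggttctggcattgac
Krt5: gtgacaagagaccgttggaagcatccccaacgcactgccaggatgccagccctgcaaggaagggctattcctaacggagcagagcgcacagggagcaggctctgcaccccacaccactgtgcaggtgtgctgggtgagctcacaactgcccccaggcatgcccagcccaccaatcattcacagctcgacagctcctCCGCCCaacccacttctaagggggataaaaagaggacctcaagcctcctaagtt
Krt76: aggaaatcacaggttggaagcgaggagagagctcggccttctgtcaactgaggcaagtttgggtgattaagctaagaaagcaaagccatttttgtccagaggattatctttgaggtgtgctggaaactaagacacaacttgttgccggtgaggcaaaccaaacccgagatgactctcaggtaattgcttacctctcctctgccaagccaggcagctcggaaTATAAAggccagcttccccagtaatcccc
Krt79: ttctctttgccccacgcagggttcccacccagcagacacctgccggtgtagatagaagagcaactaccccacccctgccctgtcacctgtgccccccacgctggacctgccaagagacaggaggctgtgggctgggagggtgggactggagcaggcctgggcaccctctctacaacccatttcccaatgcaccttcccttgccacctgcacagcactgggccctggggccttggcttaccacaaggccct

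TATAAA began 29 bases before the start of Krt76, and stood in the first window of 6 of the 15 genes; the third Krt79 window, not printed here, also held it. Of 33469 RefSeq windows of the same length, 12.9% held it. TGANTCA matched in Krt4 and in no other window of the 15 genes, against 6.34% of all windows. GGGCGG, the GC box known for binding Sp1, matched in Krt5, Krt18 and Krt75, against 30.5% of all windows. No motif was shared among the 4 sequences printed, and the Krt79 window held none of the 3. These are matches of letters and not measured sites.

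Library totals ran from 29933359 to 36895162 counts. Sftpc, the surfactant protein C of alveolar type 2 cells, stood at 8325 to 15408 CPM across the 6 libraries, as in lung. CPM are counts per 1e+06 counts of the library size after TMM scaling. WT replicate 1 stood apart: across genes, its log2 CPM correlated at 0.936 to 0.948 with the other libraries, which correlated at 0.979 or more among themselves. It carried RNA of skeletal muscle (10912 summed CPM over 15 markers, against 38.9 to 143) and of squamous epithelium, as given with the keratins. Keratin results are therefore given with and without it. RNA of the edited gene was present in KO: Tmprss2 read 50.5, 61.98 and 65.7 CPM in the WT libraries and 46.1, 56.4 and 47.03 in the KO libraries, by replicate number here and throughout (log2 fold change -0.25, SE 0.14; edgeR adjusted p 0.508). A count per gene does not show a small deletion, so it does not check the genotype.

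With 10 counts as the limit, 18 keratins were found in all 6 libraries, 3 in WT replicate 1 alone (Krt6a, Krt32 and Krt31), and 4 fell between (Krt12, Krt13, Krt17 and Krt222). That rule put Krt4 among those found everywhere, because the other 5 libraries held 23 to 33 reads of it beside 46646 in WT replicate 1. A second split was therefore made after the values were seen. It set apart the 9 keratins whose CPM in WT replicate 1 was at least 5 times the highest of the others: Krt4, Krt13, Krt5, Krt15, Krt14, Krt78, Krt6a, Krt32 and Krt31. Since these 9 were chosen by their level in that library, that level is a description and carries no test.

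The squamous pair of the upper layers stood highest. Krt4 read 1579, 0.694 and 0.697 CPM in the WT libraries and 0.842, 1.04 and 0.733 in the KO libraries. Its type I partner Krt13 read 1339, 0.392 and 0.429 CPM in WT and 0.162, 0.126 and 0.191 in KO. WT replicate 1 thus stood at 1518 and 3122 times the highest other library for this pair, and no other library passed 1.04 CPM. Outside WT replicate 1, each KO library lay below both WT libraries for Krt13, on 4 to 16 reads each, and above both for Krt4. Without WT replicate 1 the log2 fold change of Krt13 was -1.34 (SE 0.66), and it did not pass (edgeR adjusted p 0.333). Krt78, a further type II keratin of stratified epithelia, followed at 25.4, 1.93 and 0.831 CPM in WT and 1.46, 1.103 and 1.05 in KO.

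The basal-layer keratins were high in the same library and were also counted in the other 5. Krt5 read 195, 1.27 and 0.617 CPM in WT and 0.583, 1.07 and 2.46 in KO. Krt15, a type I basal keratin, read 135, 5.46 and 5.52 CPM in WT and 6.22, 3.22 and 7.56 in KO. Outside WT replicate 1 the genotypes overlapped for both.

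Krt14, the usual partner of Krt5, read 74.96, 5.398 and 4.397 CPM in WT and 0.745, 0.315 and 3.22 in KO. Each KO library lay below each WT library, with KO replicate 3 far above the other KO libraries and nearest to WT replicate 3. Without WT replicate 1 the log2 fold change of Krt14 was -1.77 (SE 0.64; 95% confidence interval -3.19 to -0.36), and it did not pass (edgeR adjusted p 0.172).

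KO replicate 3 held the most Krt5 and Krt17 of the 5 libraries other than WT replicate 1. Krt17, a type I keratin of basal and activated cells, read 0.203, 1.09 and 1.13 CPM in WT and 0.809, 0.315 and 3.64 in KO, and was lowest of all in WT replicate 1, where Krt5 and Krt14 were highest. A pair of secretory airway genes was highest in KO replicate 3 too. Bpifa1 (chosen with its values in view), a secreted protein of the airway lining, read 226 CPM there against 15.9 to 94.96 elsewhere, and the mucin Muc5b read 117 against 19.4 to 66.8 CPM. The club cell markers as a list were not: they summed to 7042, 6771 and 6355 CPM in KO, lowest of the 3 in KO replicate 3, and Scgb1a1, the main club cell secretory protein, read 6163, 5864 and 5167 CPM in KO. Scgb3a1, another club cell marker, was highest in KO replicate 3, at 148 CPM against 16.7 to 68.98 elsewhere. Cartilage markers were near 0 in all 6 libraries, at 0.135 to 0.733 summed CPM over 6 genes. The highest sum was that of KO replicate 3, close to the 0.680 of KO replicate 1. Col2a1, named after its values were seen, had 23 reads in KO replicate 3, none in KO replicate 1 and at most 6 elsewhere. Ciliated cell markers as a list summed to 655 CPM in KO replicate 3, the lowest of the 6 libraries, against 664 to 946 in the others. The part of airway tissue in these keratin values was not tested.

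The stress-type and hair keratins of WT replicate 1 had few reads. Krt6a, a keratin of wounded or thickened squamous epithelium, had 40 reads there and none in the other 5 libraries, at least 13.9-fold higher against a floor of 3 counts per library. The table holds 4 other genes described as keratin 6A that could share its reads, so its level is uncertain. Krt32 and Krt31, type I hair keratins, had 22 and 12 reads in WT replicate 1. Krt32 had none elsewhere, and Krt31 had 2 and 3 in the other WT libraries.

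**Figure D1:**
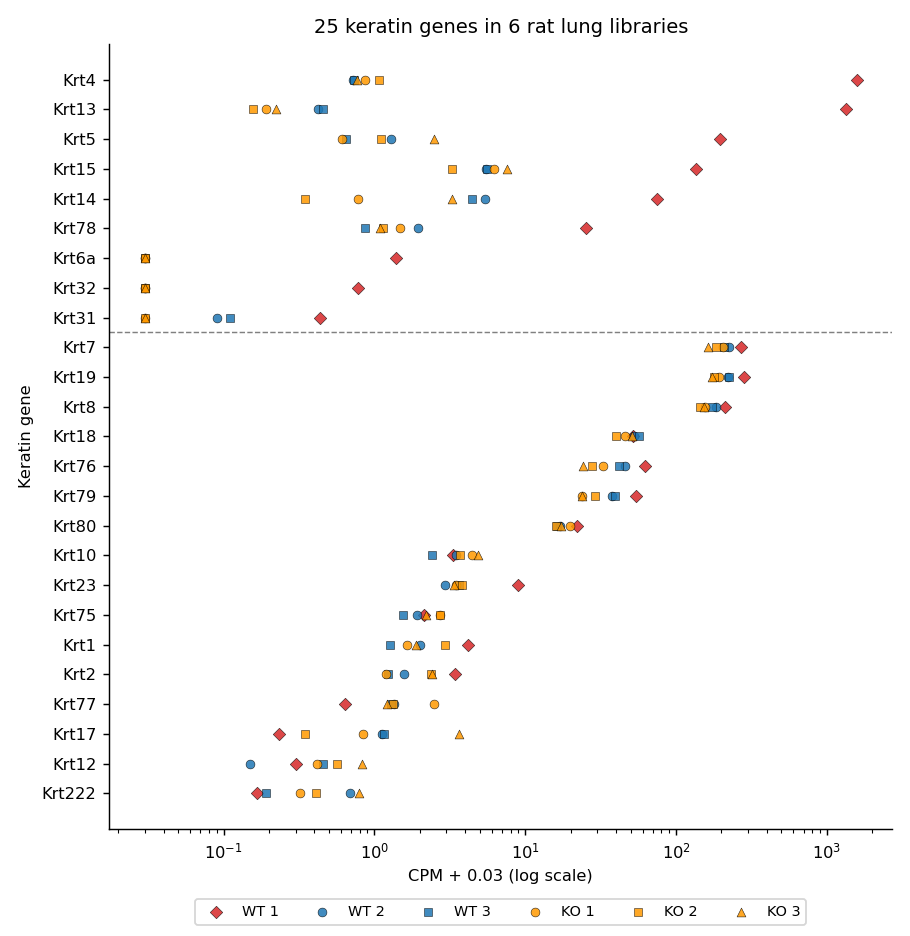
Level of each of the 25 keratins in each library on a log axis of CPM plus 0.03, with WT replicate 1 as red diamonds, the other WT libraries in blue and the KO libraries in orange. The 9 keratins above the dashed line are at least 5 times higher in WT replicate 1, up to 1579 CPM, and the 16 below it are under that limit.

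Squamous genes outside the keratins were high in the same library. Their 12 matched markers summed to 422 CPM in WT replicate 1 and to 18.4 to 24.3 in the other 5, and 10 of the 12 were at least 5 times higher there (at 1 CPM or more). The next list shares Sprr3, Crnn, Cnfn, Krtdap, Sbsn, Ly6d, Tp63, Tgm3 and Calml3 with these 12, so its counts are not independent of them. Of 33 matched genes of squamous differentiation and the cornified envelope, 19 stood at 1 CPM or more in WT replicate 1 and at least 5 times higher there than elsewhere. Counting any read, 12 were counted in WT replicate 1 alone, and Flg, Flg2, Crnn, Sprr2d and Klk7 had no count in any library. The 11 that passed the filter had a median log2 fold change of -1.37 with all 6 libraries and -0.05 without WT replicate 1, and edgeR called 0 in either fit (2 lower and 0 higher at an unadjusted p under 0.05 with all 6). By smallest p these were Sbsn (suprabasin; -2.07, edgeR adjusted p 0.3904), Tp63 (p63, the master regulator of stratified epithelium; -3.72, 0.4304), Tchh (trichohyalin; -0.77, 0.467) and Lypd3 (-1.69, 0.467). Unlike Sbsn, Tp63 and Lypd3, Tchh was not high in WT replicate 1, with 1.79 CPM there and 2.93 and 2.87 in the other WT libraries. Its log2 fold change without that library was -0.97 (edgeR adjusted p 0.154). Of genes named after their values were seen, Loricrin, the main cornified envelope protein, read 383 CPM in WT replicate 1 and at most 0.241 elsewhere. Sprr3 and Krtdap read 78.4 and 58.7 CPM there and had no count elsewhere.

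The other 16 keratins were led by those of simple epithelium. Levels of different genes were set side by side as the deposited FPKM, which divide the count by gene length and by 1 factor per library. That factor was not in proportion to the library total. Over the 5 libraries other than WT replicate 1, Krt19 came first at 142 ± 17.4 FPKM (SD, n = 5). Krt7 followed at 92.2 ± 11.3, Krt8 at 72.7 ± 7.397 and Krt18 at 35.8 ± 4.82 FPKM. Next came Krt76 at 15.4 ± 4.16, Krt79 at 12.8 ± 3.14 and Krt80 at 12.6 ± 1.11 FPKM. The ranges of Krt7 and Krt8 overlapped, as did those of neighbours among Krt76, Krt79 and Krt80, while Krt19 lay above all others and Krt18 between both sets. From Krt15 downwards each keratin averaged 3.35 FPKM or less and overlapped the next.

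Krt7, Krt8, Krt18 and Krt19 together made up 85.4 to 86.6% of summed keratin FPKM in those 5 libraries. In WT replicate 1 their share was 18.6%, and Krt4 with Krt13 held 68.7%, against 0.126 to 0.155% elsewhere. The 16 keratins still summed to 976 CPM in that library, above the 625 to 795 CPM of the others, so their lower share was not a lower level. The ratio of type I to type II totals was 1.28 in WT replicate 1 and 0.853 to 0.962 elsewhere. Between genotypes an exact two-sided permutation test of that ratio gave p = 0.4 and 0.533 after adjustment over 4 ratios; 3 libraries against 3 cannot go below 0.1.

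**Figure D2:**
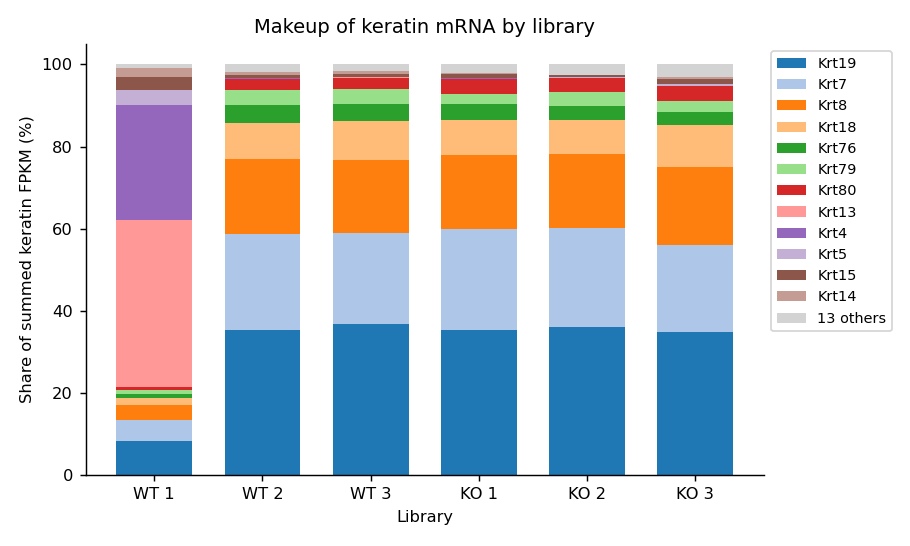
Share of summed keratin FPKM in each library, as stacked bars in percent. Krt4 and Krt13 hold 68.7% in WT replicate 1, and Krt7, Krt8, Krt18 and Krt19 hold 85.4 to 86.6% in the other 5 libraries.

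Of the 25 keratins, 22 passed the filter on low counts, and Krt6a, Krt31 and Krt32 did not. With all 6 libraries edgeR called 0 of the 22 different between KO and WT (Benjamini-Hochberg adjusted p under 0.05), where 0.0542% of all 18464 tested genes were called. DESeq2, which gave no p for 5 of the 22 (Krt4, Krt5, Krt13, Krt14 and Krt15), called 2, Krt76 and Krt79, both lower, of the other 17, beside 2.73% of the genes it adjusted. At an unadjusted edgeR p under 0.05, 11 of the 22 were lower in KO, against 6.29% of all genes, and 0 were higher, against 5.04%. Of these 11, 6 belong to the 9 chosen for their high level in WT replicate 1, so their part of that count carries no test. The other 5, of the 16 keratins outside that choice, were Krt76, Krt79, Krt19, Krt8 and Krt7. The 16 keratins had a median log2 fold change of -0.13 beside 0.00 over all genes, and 10 lay below 0. The authors' deposited table of 192 genes that differ between KO and WT holds 0 keratins, and its smallest absolute log2 fold change is 1.00.

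Without WT replicate 1, 3 of the 22 fell and 0 rose, where 2.34% of all genes fell and 1.65% rose. These were Krt76, Krt79 and Krt19. Over the 16 keratins the median was 0.17 in that fit, with 6 below 0, beside 0.00 over all genes. The fit rests on 2 WT libraries.

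Krt76 had the largest difference among the well-expressed keratins. A type II keratin known from the palate and gums, it read 61.8, 46.1 and 42.1 CPM in WT and 32.6, 27.9 and 24.2 in KO. The groups did not overlap, and the lowest WT library lay well above the highest KO library. Means were 49.997 ± 10.4 against 28.2 ± 4.21 CPM (SD, n = 3 each), 1.77-fold lower in KO. With all 6 libraries the log2 fold change was -0.83 (SE 0.18; interval -1.24 to -0.41) and did not pass in edgeR (adjusted p 0.224). Leaving out WT replicate 1, Krt76 fell by 0.64 on the log2 scale (SE 0.11; edgeR adjusted p 0.0135).

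Krt79, a type II keratin known from the hair canal and sebaceous ducts, read 54.6, 37.4 and 39.6 CPM in WT and 23.6, 28.9 and 23.7 in KO, again without overlap. Means were 43.8 ± 9.36 against 25.4 ± 3.05 CPM (SD, n = 3 each), 1.72-fold lower in KO. The log2 fold change was -0.79 (SE 0.17; interval -1.19 to -0.38; edgeR adjusted p 0.224). Leaving out WT replicate 1, Krt79 fell by 0.60 (SE 0.10; edgeR adjusted p 0.0113). DESeq2 with all 6 libraries gave adjusted p of 0.00599 for Krt76 and 0.00757 for Krt79 (log2 scale: -0.83 and -0.79).

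The pair lies close together on chromosome 7, Krt76 at 133016990 to 133025414 and Krt79 at 133056710 to 133067750, with Krt4 between them at 133046067 to 133052027. Krt4 did not share their difference outside WT replicate 1. All 3 KO libraries there lay slightly above both WT libraries, with a difference of 0.33 on the log2 scale (SE 0.45; edgeR adjusted p 0.784), on 23 to 33 reads each.

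The 4 keratins of simple epithelium differed less, all in 1 direction. Krt19, a type I keratin, read 283, 219 and 226 CPM in WT and 191, 178 and 174 in KO. Its means were 243 ± 34.9 and 181 ± 9.35 CPM (SD, n = 3 each), 1.34-fold lower in KO, at -0.43 on the log2 scale (SE 0.12; edgeR adjusted p 0.304). Leaving out WT replicate 1, Krt19 fell by 0.30 (SE 0.06; edgeR adjusted p 0.0239).

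Krt7, a type II keratin, read 269, 223 and 209 CPM in WT and 204, 183 and 162 in KO, so that the groups nearly met. Krt8 read 211, 184 and 174 CPM in WT and 156, 144 and 153 in KO, with a clear gap. Krt18, the partner of Krt8, read 51.8, 52.9 and 57.1 CPM in WT and 46.2, 39.9 and 50.9 in KO, a gap of under 1 CPM. Unlike the other 3, Krt18 was lower in WT replicate 1 than in the other WT libraries. Log2 fold changes of Krt7, Krt8 and Krt18 were -0.35, -0.33 and -0.24 (SE 0.14, 0.11 and 0.12; edgeR adjusted p 0.415, 0.347 and 0.478). Leaving out WT replicate 1 gave -0.24, -0.25 and -0.27, and none of the 3 passed (edgeR adjusted p 0.185, 0.0565 and 0.177).

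**Figure D3:**
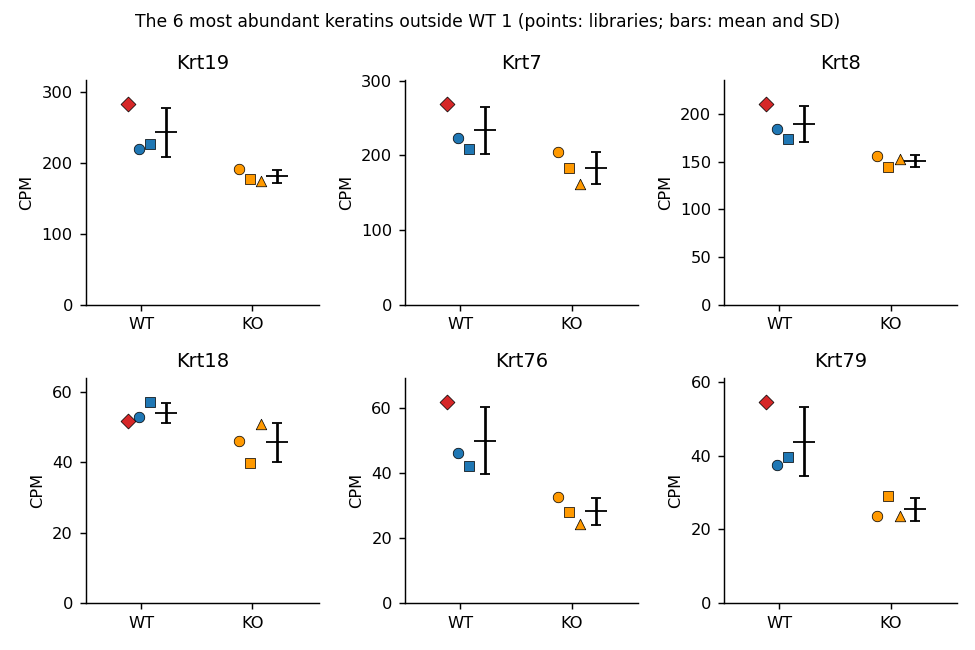
CPM by genotype of the 6 keratins most abundant outside WT replicate 1, with axes from 0; points are libraries (red diamond: WT replicate 1) and bars the mean with its SD (n = 3). In each panel all KO points lie below all WT points, and the gap relative to the level is widest for Krt76 and Krt79.

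In all, 6 of the 16 keratins had every KO library below every WT library, as did 11.4% of tested genes. Krt10 and Krt75 had every KO library above, as did 11.4%. Within libraries, ratios of keratin pairs picked after the levels were seen were also taken. The FPKM ratio of Krt76 to Krt7 was 0.218, 0.196 and 0.192 in WT and 0.152, 0.145 and 0.142 in KO. That of Krt79 to Krt8 was 0.241, 0.189 and 0.212 in WT and 0.141, 0.187 and 0.145 in KO, groups that barely separate. Both gave an exact two-sided permutation p of 0.1, the smallest possible here, and 0.2 adjusted over the 4 ratios. Krt76 and Krt79 were picked from these same values, and the adjustment does not cover that choice. These p-values therefore add no support to their difference. Krt8 to Krt18 stood at 2.18 ± 0.315 in WT and 2.06 ± 0.191 in KO (SD, n = 3 each; exact permutation p 0.6, the same after adjustment).

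The remaining keratins passed in neither fit. Krt80, a type II keratin of many epithelia, read 21.9, 16.9 and 16.1 CPM in WT and 19.7, 16.05 and 17.3 in KO, overlapping groups with a log2 fold change of -0.05 (interval -0.43 to 0.34). Krt23, a type I keratin, read 8.97, 2.895 and 3.59 CPM in WT and 3.43, 3.75 and 3.35 in KO, so that WT replicate 1 stood above a narrow range of the other 5. Krt10, the type I keratin of cornifying epidermis, read 3.28, 3.44 and 2.39 CPM in WT and 4.44, 3.66 and 4.82 in KO. Its log2 fold change was 0.50 (SE 0.24; edgeR adjusted p 0.474), and 0.57 leaving out WT replicate 1 (edgeR adjusted p 0.266).

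The type II keratins of the epidermis did not share the order of Krt10. Krt1 read 4.13, 1.99 and 1.23 CPM in WT and 1.62, 2.9002 and 1.85 in KO. Krt2 read 3.39, 1.54 and 1.21 CPM in WT and 1.17, 2.33 and 2.39 in KO. Both were highest in WT replicate 1, with overlapping genotypes. Krt75, a hair follicle keratin, read 2.099, 1.89999 and 1.53 CPM in WT and 2.69, 2.68 and 2.17 in KO (log2 fold change 0.45, SE 0.25; edgeR adjusted p 0.525). Krt77 read 0.609, 1.33 and 1.26 CPM in WT and 2.46, 1.29 and 1.18 in KO, with KO replicate 1 above the rest. Krt12, the corneal keratin, and Krt222 read 0.121 to 0.797 and 0.135 to 0.765 CPM. Krt75, Krt77, Krt12 and Krt222 had 4 to 85 reads per library, so small differences in them were not detectable.

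**Figure D4:**
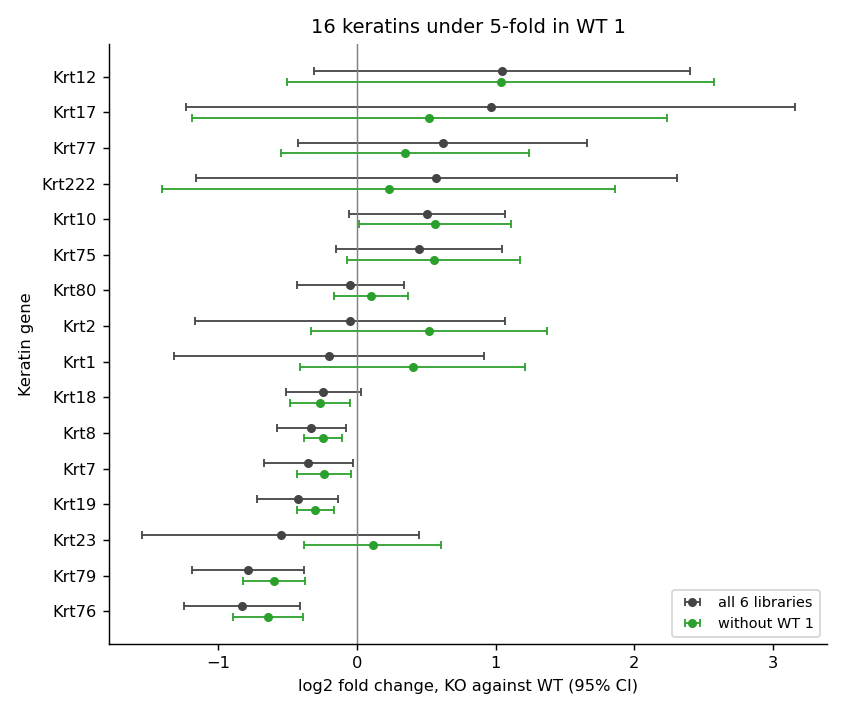
Log2 fold change of KO against WT with its 95% confidence interval for the 16 keratins under 5-fold in WT replicate 1, with all 6 libraries and without WT replicate 1. Krt76 at -0.83 and Krt79 at -0.79 lie farthest below 0 with all 6, and Krt80, Krt23, Krt1 and Krt2 change side between both fits.

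Markers of the cells that carry simple keratins were set beside these values. The 8 general epithelial markers had a median log2 fold change of -0.01 with 0 called by edgeR (0 also at an unadjusted p under 0.05). They did not move together. Ehf stood at 0.46, with every KO library above every WT library, and Elf3 at -0.24, with every KO library below. Cdh1 (E-cadherin) and Epcam stood at -0.07 and 0.11. Alveolar type 1 markers summed to 5739 to 6201 CPM over 7 genes, with overlapping genotypes. Their median log2 fold change was -0.05, with 0 called by edgeR and 1 lower at an unadjusted p under 0.05. Genes of this list did not move together either. Pdpn and Ager, at -0.27 and -0.21, had every KO library below every WT library. Rtkn2 and Cav1, at 0.33 and 0.19, had every KO library above. Of all tested genes, 11.4% lay apart in each direction. Alveolar type 2 markers summed to 34112, 22153 and 20899 CPM in WT and 19041, 19318 and 17592 in KO, without overlap. All 8 lay below 0 (median -0.41), with 0 called by edgeR and 3 lower at an unadjusted p under 0.05. Leaving out WT replicate 1 their median was -0.19 and 2 fell, Sftpc by 0.20 and Lamp3, named after its value was seen, by 0.42.

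Mesothelial markers summed to 205, 281 and 281 CPM in WT and 133, 134 and 189 in KO, without overlap. All 8 lay below 0 (median -0.82); edgeR called 0 with all 6 libraries (7 lower at an unadjusted p under 0.05), and 7 fell leaving out WT replicate 1 (median -0.95). In that fit Upk3b, a uroplakin, fell by 0.96, Lrrn4 by 1.08, Bnc1 (basonuclin) by 1.81 and Rspo1 (R-spondin) by 0.78. Unlike Krt76 and Krt79, the sum was lowest of the WT libraries in WT replicate 1. Among club cell markers 5 of 6 lay above 0 (median 0.40), with 0 called by edgeR with all 6 and 2 higher leaving out WT replicate 1, Scgb1a1 and Scgb3a2. The part of these cell types in the keratin values was not tested. In bulk tissue, fewer cells of a type and less RNA per cell cannot be told apart.

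**Figure D5:**
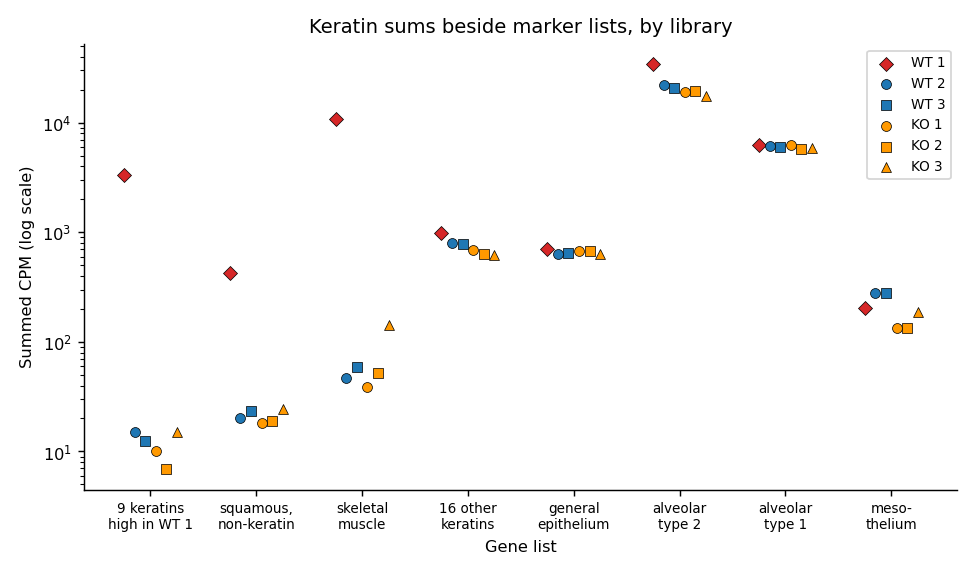
Summed CPM per library on a log axis for the 9 keratins high in WT replicate 1, the 16 other keratins and 6 marker lists. The 9 keratins (3351 CPM), squamous markers (422 CPM) and muscle markers (10912 CPM) peak in WT replicate 1, and the 16 keratins, alveolar type 2 and mesothelial markers are lower in every KO library than in every WT library.

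Desmosomes and hemidesmosomes anchor keratin filaments through cadherins, plakophilins and plakins. Of 22 such partner genes 18 were tested, and edgeR called 0 in either fit (3 lower and 0 higher at an unadjusted p under 0.05 with all 6). Their median log2 fold change was -0.28 with all 6 libraries and -0.02 without WT replicate 1. Dsc2 (desmocollin 2) read 17.9, 12.003 and 12.8 CPM in WT and 9.06, 8.89 and 8.801 in KO, without overlap (log2 fold change -0.68; edgeR adjusted p 0.287). Dsg2 (desmoglein 2), the desmoglein of simple epithelia, stood at -0.34 (edgeR adjusted p 0.374). Dsg1 (desmoglein 1) and Col17a1 (a hemidesmosome collagen) stood at -4.58 and -0.91 (edgeR adjusted p 0.402 and 0.447). WT replicate 1 was the high library for both, with 39.1 and 42.2 CPM where no other library passed 0.777 and 15.5.

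Among 16 other intermediate filament genes 11 were tested, and edgeR called 0 with all 6 libraries (3 lower at an unadjusted p under 0.05), while 2 fell leaving out WT replicate 1. Nes (nestin) read 97.5, 96.8 and 99.5 CPM in WT and 57.1, 53.8 and 73.5 in KO, and fell by 0.67 in that fit (edgeR adjusted p 0.0113). Vim (vimentin), the filament of mesenchymal cells, read 1190, 930 and 878 CPM in WT and 720, 706 and 709 in KO, and fell by 0.34 (edgeR adjusted p 0.00594). Both had every KO library below every WT library. Prph (peripherin) and Lmna (lamin A/C) stood at -0.53 and -0.47 with all 6 libraries (edgeR adjusted p 0.424 and 0.441), and passed in neither fit.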

How the data were processed

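Lung mRNA of 3 WT and 3 KO rats was sequenced. The authors deposited whole-number read counts for 40995 genes and FPKM values. The submitters' processing notes name HISAT2 2.2.1, StringTie 2.2.3, featureCounts 2.0.6, DESeq2 1.42.0 and the build mRatBN7.2, without roles; the sources used here do not say how strand and multi-mapped reads were treated. The deposited FPKM equal count over gene length, divided by 1 factor per library. The authors' deposited comparison table gives log2 fold changes and p-values; its 20 columns of per-library or group values were not used.

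Counts were tested with edgeR 4.0.16 (R 4.3.3): TMM scaling, filterByExpr (minimum count 10, minimum total 15) and the quasi-likelihood test of KO against WT, adjusted by Benjamini-Hochberg over all tested genes, with a threshold of 0.05. CPM values use the TMM library sizes. The code was tested on simulated data. With all 6 libraries it recovered 46% of 2-fold and 91% of 4-fold changes, and 10.5% of its calls were false. Without WT replicate 1 it recovered 93% and 100%, with 4.46% false. A gene not called with all 6 libraries is therefore not shown to be unchanged. Totals of 29933359 to 36895162 counts set the precision, and floors cover counting error alone. The edgeR p-values weigh the KO to WT difference against the spread between libraries within a group, estimated partly across genes. With all 6 libraries that spread includes WT replicate 1.

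The keratins and lists were chosen with earlier results of these data known. The naming rule took every keratin and up to 4 tested genes with the smallest p per list; other names are said to come after the values were seen. Marker lists of airway basal cells, ciliated cells, smooth muscle, thyroid, thymus and mucous gland had 0 genes called by edgeR in either fit. At an unadjusted edgeR p under 0.05 with all 6 libraries, 0 to 2 genes per list passed. Their median log2 fold changes were -0.18, 0.33, -0.14, -0.08, 0.05 and 0.57. The thymus median rests on 2 tested genes, and the mucous gland value on Muc5b alone. Muscle markers had a median of -4.87 and 0 called (8 lower unadjusted). Alternatives were other scalings, filters and fits, DESeq2 1.42.0, limma 3.58.1 on log2(FPKM + 1) and log2(FPKM + 0.1), a replicate block and leaving out each library; sample quality weights and the 5-fold split were added after seeing the data.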

Additional observations from a re-analysis of the deposited data

How the results depend on the processing

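Over the alternatives, values of single keratins kept direction and side of the threshold 329 times, newly passed 10 times and changed direction 22 times. With all 6 libraries only DESeq2 (2 of the 17 keratins it gave a p, 501 genes) and sample quality weights (5 keratins, 1676 genes) called keratins; the weights, added after seeing the data, called Krt19, Krt8, Krt14, Krt76 and Krt79. Leaving out 1 library gave 0 to 3 keratins and 1 to 758 genes against 10, the 3 and 758 without WT replicate 1. The replicate block gave 2 genes and 0 keratins; deviations of same-numbered WT and KO libraries correlated at -0.0808, 0.0275 and -0.0848, and not every library correlated best with its own number, so the numbers are not taken as pairs. The 5-fold split put 9 keratins in WT replicate 1 in place of 3.

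Leaving out 1 library, log2 fold changes ran from -9.82 to 0.33 for Krt4, from -6.30 to 0.55 for Krt5, from -3.64 to 0.0454 for Krt15, from -0.13 to 0.10 for Krt80, from -0.84 to 0.11 for Krt23, from -0.53 to 0.40 for Krt1, from -0.32 to 0.52 for Krt2 and from -0.53 to 1.45 for Krt17; the highest came without WT replicate 1, except for Krt17 (without KO replicate 2, and the lowest without KO replicate 3). Krt2 stood at 0.00223 with upper quartile scaling, 0.0627 with limma-voom, 0.00355 on log2(FPKM + 0.1) and 0.0447 with the replicate block, and Krt80 at 0.00156 with upper quartile scaling. With quality weights Krt4 stood at 0.14, Krt80 at 0.0582, Krt23 at 0.19, Krt1 at 0.23, Krt2 at 0.35, Krt17 at -0.32 and Krt222 at -0.15. The cause was not tested.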

Other observations

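The table holds 16 genes outside the Krt naming whose described protein is a keratin, of which 4 reached 10 counts in a library. LOC683212, described as type I keratin 18, read 40, 21 and 17 counts in the WT libraries and 6, 7 and 7 in the KO libraries. Ka11, described as type I keratin 16, read 3, 18 and 21 counts in WT and 21, 30 and 5 in KO. LOC108352132, a long noncoding RNA, and LOC303341, a Krt18 pseudogene, had at most 14 counts each. These counts were not added to any keratin above.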
